A study of Mus musculus with 2 samples.

Results

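The keratin genes of the mouse were followed across the cells of 2 single-cell libraries made from tissue labelled olfactory epithelium. Members were all genes whose symbol is Krt followed by a number, which gave 50 of the 56953 genes in the tables: 25 type I genes, 24 type II genes and Krt222, which belongs to neither type. Each library came from 1 male wildtype C57BL/6J mouse, both mice form 1 group, no treatment or genetic change was compared, and the labels do not state the age of the animals. The tissue had been cut up, digested with enzymes at 37 °C and passed through a sieve before cells were captured in droplets. A cell was a barcode with at least 1000 counted molecules (UMIs) that also passed limits on genes, mitochondrial share and doublet score, which left 12537 cells of mouse 1 and 8930 cells of mouse 2. Krt6a and Krt6b, whose symbols end in a letter, fall outside the rule, and their values are given only beside those of their partners.

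Keratins build the intermediate filaments of epithelial cells, the ropes that join desmosomes and hemidesmosomes across a cell layer. A filament forms from pairs of 1 type I and 1 type II chain, so cells that build it need both types. Pairs mark the state of an epithelium. Krt5 with Krt14 mark basal cells, Krt8 with Krt18 simple epithelium and Krt1 with Krt10 cornifying layers. Krt4 with Krt13 mark the layers above the basal one in moist stratified epithelium. Krt6 genes with Krt16 and Krt17 mark wounded or stressed epithelium. In the olfactory epithelium Krt5 and Krt14 mark horizontal basal cells and Krt8 and Krt18 mark sustentacular cells. Cartilage cells are not known as keratin-rich cells, and their intermediate filaments are mostly of vimentin.

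The cells held 65945481 UMIs in mouse 1 and 63061420 UMIs in mouse 2, with medians of 3884 and 5244.5 UMIs per cell. They fell into 24 clusters, drawn with the keratins left out and named from marker lists; fibroblast-like cells (4456 and 3690) and chondrocyte-like cells (3316 and 1989) were the most numerous named classes, and 34 cells in each mouse were epithelial-like. Markers of olfactory cell types were looked up in the epithelial-like cells, a class to which neurons need not belong. All 5 markers of olfactory neurons were at 0 there in mouse 1, and Omp alone was counted in mouse 2, with 5 UMIs. The sustentacular markers Cyp2g1, Ermn and Cyp1a2 were at 0 in both mice, and Sec14l3 and Gldc were each counted in 1 cell per mouse. No cluster was named for either type. Among the named classes the 5 neuron markers together were highest in Schwann-like cells, at 74.2 and 65.0 CPM, from 2 and 1 of the genes. Both libraries held mostly connective tissue cells, and their epithelial-like cells were a small group in which most of the markers of those olfactory types were at 0. Cell barcodes with the same sequence occurred in both libraries 389 times, 158 of them in the same class, and 1 of the epithelial-like cells of mouse 1 was among them. Levels are given as CPM, the UMIs of a gene per 1000000 UMIs of the group, with exact Poisson intervals of 95%, and shares of cells with exact Clopper-Pearson intervals of 95%; both cover counting error only. UMIs were not divided by transcript length, so an order between genes is one of molecules counted.

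Sequences around the start of 4 members are shown first, 1 for each of 4 groups of keratins whose levels in the epithelial-like cells are given further on. They run from 250 bases before to 50 bases after the start of the gene in RefSeq's GRCm38.p6 annotation, 5′ to 3′ on the strand of the gene, and 35 of the 50 members were matched in that table. Capitals mark each match on either strand to 1 of 3 motifs. The motif searched for the TATA box was TATAAA. That of the AP-1 factors, which include Fos and Jun, was TGANTCA, where N is any base. For the GC box it was GGGCGG. Krt5, from the pair of basal cells, lies on the minus strand at chr15:101712856-101713155 and holds none of the 3 motifs. Krt13, the member with the highest mean level of both mice in the epithelial-like cells, lies on the minus strand at chr11:100121517-100121816. Krt7, a type II keratin of simple and glandular epithelium, lies on the plus strand at chr15:101412153-101412452. Krt8, the type II chain of simple epithelium, lies on the minus strand at chr15:102004293-102004592.
Krt5: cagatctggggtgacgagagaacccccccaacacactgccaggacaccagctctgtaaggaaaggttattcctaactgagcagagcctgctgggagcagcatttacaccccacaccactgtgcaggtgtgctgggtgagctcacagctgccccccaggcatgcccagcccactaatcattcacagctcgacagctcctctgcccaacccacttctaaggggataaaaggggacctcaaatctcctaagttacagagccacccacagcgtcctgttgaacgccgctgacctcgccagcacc
Krt13: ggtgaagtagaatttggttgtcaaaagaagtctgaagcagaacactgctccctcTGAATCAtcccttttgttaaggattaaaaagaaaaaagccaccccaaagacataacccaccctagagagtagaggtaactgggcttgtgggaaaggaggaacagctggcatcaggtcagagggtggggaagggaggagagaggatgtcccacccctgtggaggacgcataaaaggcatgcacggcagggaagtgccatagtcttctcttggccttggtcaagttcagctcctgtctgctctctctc
Krt7: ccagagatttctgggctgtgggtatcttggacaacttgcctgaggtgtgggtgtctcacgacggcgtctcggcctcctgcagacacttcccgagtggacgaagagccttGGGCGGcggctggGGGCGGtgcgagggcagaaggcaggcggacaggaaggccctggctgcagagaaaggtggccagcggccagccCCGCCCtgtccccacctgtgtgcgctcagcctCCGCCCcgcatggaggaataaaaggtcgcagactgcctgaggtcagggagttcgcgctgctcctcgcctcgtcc
Krt8: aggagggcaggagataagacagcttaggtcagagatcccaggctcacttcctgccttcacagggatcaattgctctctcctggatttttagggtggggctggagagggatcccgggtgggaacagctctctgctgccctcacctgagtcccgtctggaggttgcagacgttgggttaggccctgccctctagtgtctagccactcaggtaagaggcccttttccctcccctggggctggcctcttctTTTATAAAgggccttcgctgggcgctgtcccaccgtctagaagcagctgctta
The Krt13 window holds 1 TGANTCA match, the Krt7 window 4 GGGCGG matches, and the Krt8 window 2 overlapping TATAAA matches on opposite strands. Over all 27025 promoters of the same length TATAAA occurred in 14.2%, TGANTCA in 7.92% and GGGCGG in 35.9%. TATAAA occurred in 18 of the 35 keratin windows and in 6 of the 17 windows of members with at least 20 UMIs; TGANTCA occurred in 1 of the 35 and GGGCGG in 2. A match is a string of letters and not a tested site, and for Krt16, Krt17, Krt15 and Krt19 no window was used here.

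Over all cells, the keratins together made up 173 CPM of mouse 1 and 244 CPM of mouse 2. Of the 50 members, 26 had at least 20 UMIs in the cells, 18 had 1 to 19 UMIs, and 6 (Krt9, Krt31, Krt32, Krt34, Krt39 and Krt40, type I keratins of hair or of thick skin in part) had none. The floor of 3 UMIs is 0.0455 CPM in mouse 1 and 0.0476 CPM in mouse 2, so a lower level in all cells was not detectable at this depth. Krt16 alone held 50.3% of the keratin UMIs of mouse 1 and 44.4% of those of mouse 2. The epithelial-like cells, 0.271% and 0.381% of cells, held 26.9% and 36.2% of the keratin UMIs, and 54.0% and 65.0% of those that were not Krt16. Barcodes of at most 50 UMIs, a measure of free RNA, held keratins at 237 and 339 CPM, a higher level than over the cells in both mice. Of the 26 members counted at least 20 times, 18 had their highest mean level in the epithelial-like class, 3 in the fibroblast-like class, 2 in the chondrocyte-like class and 1 each in B, mast and T or NK cells.

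**Figure D1:**
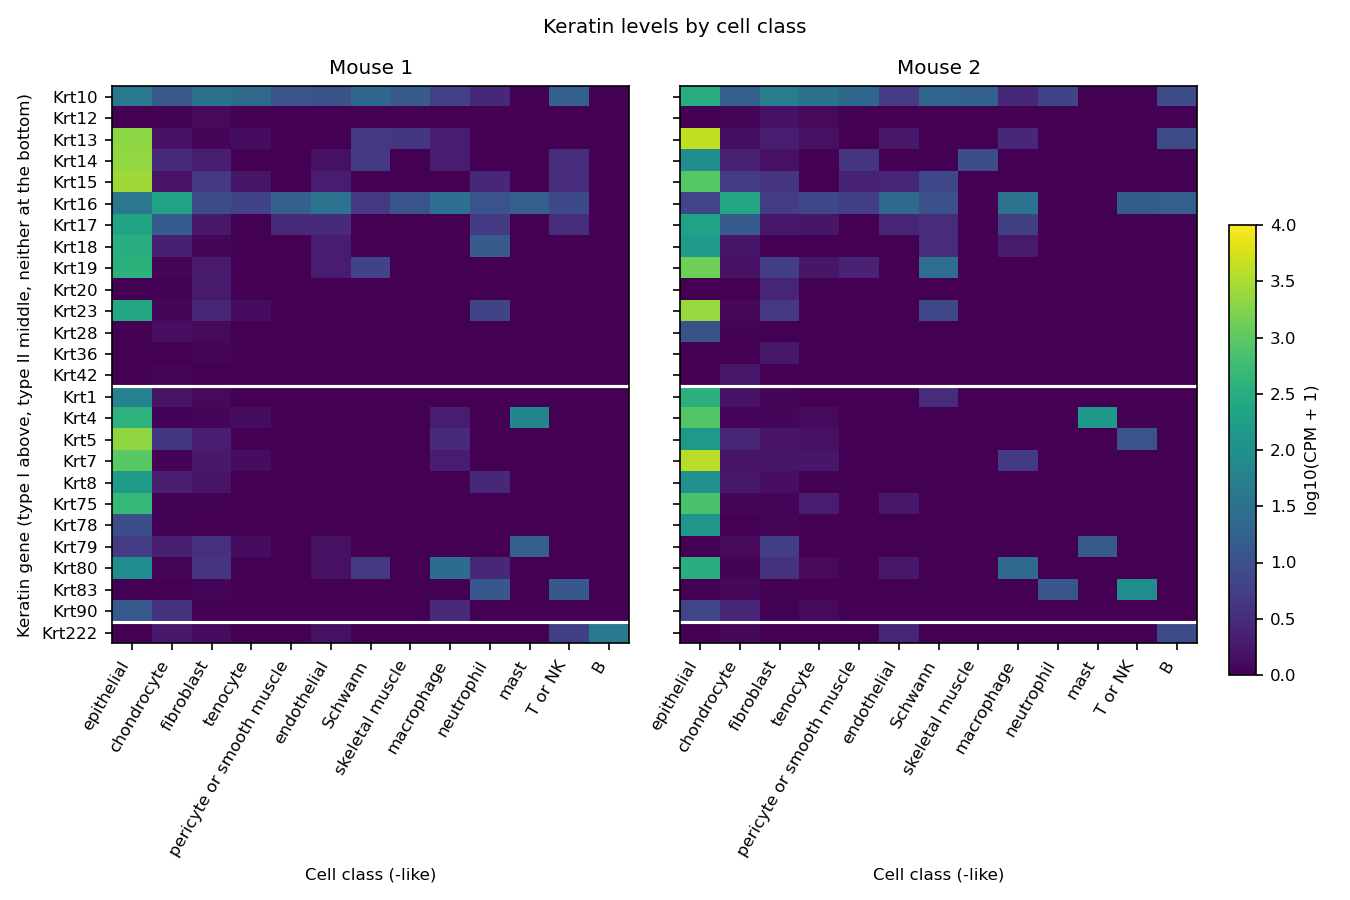
Level of each keratin gene with at least 20 UMIs (rows) in each named cell class (columns), as log10 of CPM plus 1, for mouse 1 on the left and mouse 2 on the right. The first column, the epithelial-like cells, is bright for most rows, while Krt16 is brightest in the chondrocyte-like column, at 199 and 258 CPM.

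Cells with 3 or more keratin UMIs, summed over all members, numbered 559 in mouse 1 and 554 in mouse 2. Of these, 74.1% in mouse 1 and 63.9% in mouse 2 were chondrocyte-like, 10.6% and 20.2% were fibroblast-like, and 5.72% and 5.78% were epithelial-like. Without Krt16 the numbers were 186 and 266 cells, of which 32 in each mouse were epithelial-like. Chondrocyte-like cells were 41.4% and 31.2% of them and fibroblast-like cells 27.4% and 40.6%, so fibroblast-like cells were the largest group in mouse 2. Within their classes, 2.32% and 4.17% of chondrocyte-like and 1.14% and 2.93% of fibroblast-like cells met the rule without Krt16. The chondrocyte-like cells were the deeper ones. Within the epithelial-like class 32 of 34 cells met the rule in each mouse, with or without Krt16. By this count there were more keratin-positive chondrocyte-like cells than epithelial-like cells in both mice.

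In the epithelial-like cells keratin mRNA made up 12624 CPM in mouse 1 and 16092 CPM in mouse 2, and both types were present. Type I genes reached 8288 and 9755 CPM and type II genes 4335 and 6336 CPM, so that type I was 65.7% of the typed UMIs in mouse 1 (95% interval 63.9 to 67.3) and 60.6% in mouse 2 (59.3 to 61.9). Both types were counted in 31 of 34 cells of mouse 1 and 33 of 34 cells of mouse 2. Per cell, keratins ranged from 0 to 35677 CPM around a median of 9442 CPM in mouse 1, and from 552.0 to 62772 CPM around a median of 6267 CPM in mouse 2.

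Keratins of moist stratified epithelium and of glandular or transitional epithelium were counted in both mice. Krt13 is a type I keratin of the layers above the basal one in mucosal epithelium. It stood at 2127 CPM in mouse 1 (1947 to 2318) and 4317 CPM in mouse 2 (4101 to 4542). Its type II partner Krt4 stood at 391 and 855 CPM, and Krt78, a type II keratin of differentiating stratified epithelium, at 8.23 and 127 CPM. Krt7, found in simple and glandular epithelium, stood at 962 and 3665 CPM, and Krt19, the short keratin of simple and transitional epithelium, at 374 and 1292 CPM. Krt23, an epithelial type I keratin, stood at 255 and 2419 CPM. All of these were higher in mouse 2 than in mouse 1, in libraries of 34 cells each, and no test between the mice was made because each is 1 library. Of the genes outside the symbol rule, Krt6a had 498 and 991 CPM in these cells and Krt6b 230 and 1185 CPM.

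The basal keratins went the other way. Krt5 stood at 2164 CPM in mouse 1 and 148 CPM in mouse 2, and Krt14, its type I partner, at 2229 and 89.8 CPM. Krt15, a type I keratin of basal cells, stood at 2690 and 889 CPM. Few cells carried these levels: the 3 cells with most Krt5 and Krt14 held 63.2% of the UMIs of the pair in mouse 1 and 56.1% in mouse 2. In mouse 2 the free RNA held Krt5 at 24.6 CPM and Krt14 at 21.7 CPM, while all cells of that mouse held 1.84 and 1.25 CPM. Free RNA of mouse 1 held 11.3 and 16.3 CPM, and its cells 10.1 and 9.99 CPM. Both genes thus stood at a higher level in free RNA than over all cells in both mice. In such sums over cells, fewer basal cells and less RNA per basal cell cannot be told apart. Counted cell by cell, both values were lower in mouse 2. At least 3 UMIs of the pair were present in 13 epithelial-like cells of mouse 1 and 7 of mouse 2. The most in 1 cell was 368 UMIs in mouse 1 and 23 in mouse 2. The cause was not tested.

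Keratins of simple epithelium, of cornifying layers and of stressed epithelium were also counted in the epithelial-like cells. Krt8 stood at 160 CPM in mouse 1 and 104 CPM in mouse 2, and Krt18, its type I partner, at 321 and 162 CPM. Krt1, the type II keratin of cornifying cells, stood at 57.6 and 377 CPM, with 41.1 and 307 CPM for its partner Krt10. Of the Krt1 UMIs, 1 cell held 14 of the 14 of mouse 1 and 81 of the 130 of mouse 2. The 3 cells with most Krt1 and Krt10 held 91.7% and 92.4% of the UMIs of the pair. Krt17, a type I keratin of appendages and of wounded epithelium, stood at 214 and 212 CPM. In mouse 2, 1 cell held Krt17 at 15240 CPM, and the next highest cell at 1797 CPM. Krt75, a type II keratin of hair follicles and filiform papillae, stood at 481 and 716 CPM, and Krt80, a type II keratin tied to cell differentiation, at 86.4 and 330 CPM. Krt16 was among the lowest here, with 9 UMIs (37.0 CPM) in mouse 1, 7 of them in 1 cell, and 2 UMIs (5.79 CPM) in mouse 2.

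Cell by cell, the epithelial-like group was a mixture. Pairs of keratins were grouped after their levels had been seen, and a cell was counted for a pair at 3 or more UMIs of both genes together. Krt5 with Krt14 was present in 13 of 34 cells of mouse 1 (38.2%, 22.2 to 56.4) and 7 of 34 cells of mouse 2 (20.6%, 8.70 to 37.9). Krt13 with Krt7 was present in 16 cells (47.1%, 29.8 to 64.9) and 19 cells (55.9%, 37.9 to 72.8). Krt8 with Krt18 was present in 8 and 7 cells and Krt1 with Krt10 in 2 and 5 cells. The basal pair and Krt13 with Krt7 met in 4 cells of mouse 1 and 0 of mouse 2, and the basal pair and the simple pair in 0 and 2 cells. All 13 basal-pair cells of mouse 1 also had Krt15, against 4 of 7 in mouse 2, and Krt15 met Krt13 with Krt7 in 9 and 10 cells. Some of these barcodes were much alike: 6 of 561 pairs of mouse 1 and 5 of 561 pairs of mouse 2 correlated over 0.7 across genes. With 1 barcode of each such pair left out, the calls of all 38 keratin results of the class comparisons given further on stayed as they were.

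**Figure D2:**
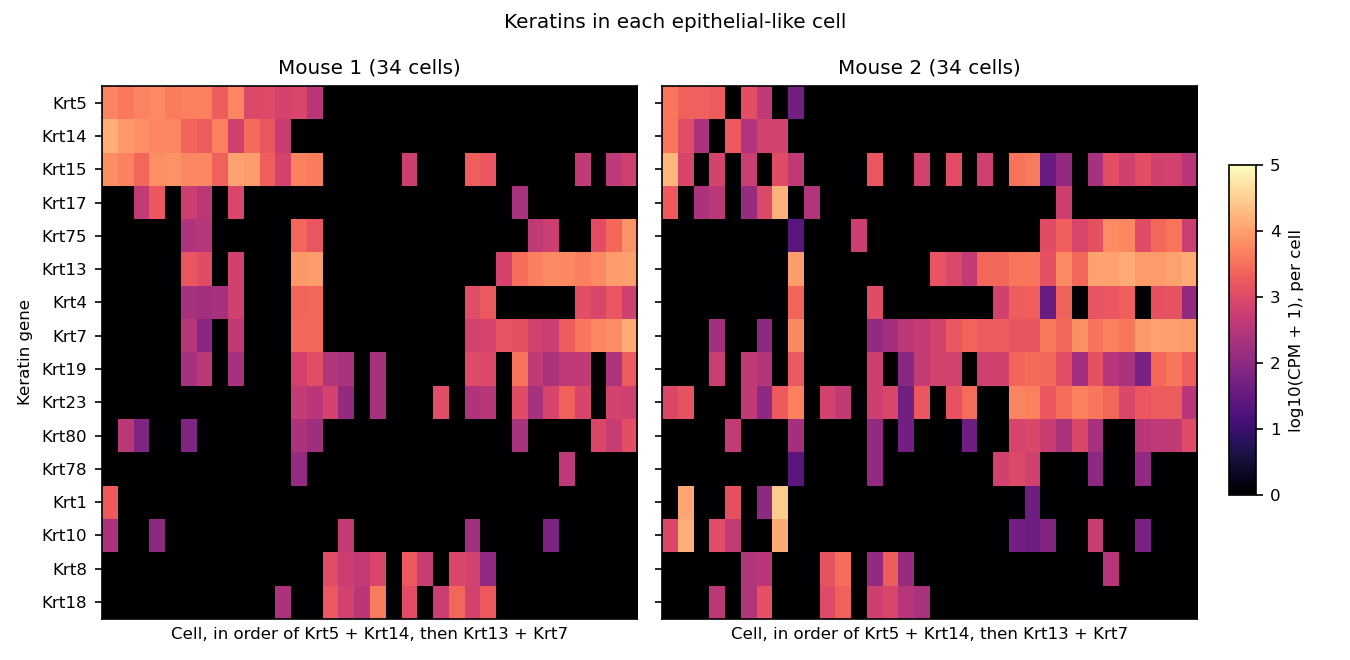
Each column is 1 epithelial-like cell and each row 1 keratin gene, coloured by log10 of CPM plus 1 within the cell, with 34 cells of mouse 1 on the left and 34 of mouse 2 on the right. Cells with Krt5 and Krt14 stand at the left of each panel (13 and 7 cells pass 3 UMIs), cells with Krt13 and Krt7 at the right (16 and 19), and cells with Krt8 and Krt18 lie mostly between them.

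Markers of other cells were counted in the same barcodes. The epithelial markers Epcam and Cldn7 stood at 193 and 346 CPM in mouse 1 and 212 and 377 CPM in mouse 2, and all 7 markers of that list were present in both mice. The fibroblast markers Col1a1 and Dcn stood at 2661 and 3616 CPM in the epithelial-like cells of mouse 1 and at 437 and 229 CPM in mouse 2, and the cartilage marker Col2a1 at 547 and 69.5 CPM. Of the 5 markers of ciliated cells 4 were at 0 in mouse 1, and in mouse 2 the most counted of them, Tmem212, had its 62 UMIs in 2.94% of the cells, which is 1 cell. Whether these other RNAs bear on the keratin levels was not tested.

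The first comparison asked which keratins tell the epithelial-like cells from fibroblast-like cells, with UMIs added up within each class of a mouse. The sums were tested by edgeR (quasi-likelihood, Benjamini-Hochberg adjustment over 12930 genes). Of the 50 members 16 passed the filter on low counts, and only 4 of the 50 (Krt10, Krt16, Krt4 and Krt80) pass it when the epithelial-like sums are left out. The other 12 passed only through the class where they are high, so they had to differ, and the counts describe them without being evidence of a direction. Higher levels were called at an adjusted p under 0.05 for 15 of the 16 and lower levels for 0 (16 and 0 at an unadjusted p under 0.05, and 11 and 0 by DESeq2), against 10.5% and 9.89% of all genes tested. Krt13 stood at 0.130 and 1.12 CPM in fibroblast-like cells and differed by a log2 fold change of 12.65 (SE 0.90, adjusted p 1.76e-10). For Krt7, at 0.908 and 0.749 CPM in fibroblast-like cells, the log2 difference was 11.32 (SE 0.86, adjusted p 2.48e-09). Krt5 and Krt14, low in mouse 2, differed by 9.87 (SE 0.82, adjusted p 5.49e-09) and 9.80 (SE 0.83, adjusted p 1.89e-09). Krt10 had the smallest called difference, 2.50 (SE 0.53, adjusted p 0.000993), with fibroblast-like cells at 31.0 and 46.6 CPM. It rested on mouse 2: on the scale of log2 of CPM plus 1 the difference was 2.69 in mouse 2 and 0.40 in mouse 1. In mouse 2 it rested on few cells. The 2 highest epithelial-like cells held Krt10 at 14821 and 12700 CPM, and the next at 1121.5 CPM. Krt16 was the member not called, at 1.90 (SE 0.71, adjusted p 0.0594). The 15 differences had the same direction in each mouse alone. For the 12 that passed only through the epithelial-like sums this adds no evidence of a direction.

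Lists of genes that work with keratins were set beside these results, where 10.5% of all genes tested were higher and 9.89% lower. Some listed genes, too, passed the filter only through the epithelial-like sums and had to differ: Dsp of the 5 desmosome genes tested, Evpl and Col17a1 of 11 hemidesmosome and plakin genes, 3 of 5 cornified envelope genes, 6 of 8 transcription factors and Pof1b of 5 genes of keratin binding and folding. The counts describe the lists and show no direction for them. Of 12 desmosome genes, the junctions to which keratins attach, 5 were tested and 5 were higher, among them Dsp, which links keratin to the desmosome, at 222 and 101 CPM against 0 and 0.624 CPM (log2 9.10, adjusted p 3.04e-07). The median log2 difference of the 5 was 7.41, beside -0.29 over all genes. Of the cornified envelope genes 4 of 5 tested were higher, including Calml3 at 806 and 1457 CPM and Cnfn at 296 and 1756 CPM. Of the epithelial transcription factors 7 of 8 were higher, led by Ehf at 173 and 171 CPM against 0.454 and 0.562 CPM (log2 8.59, adjusted p 3.07e-11). Hemidesmosome and plakin genes were higher in 5 of 11, with Evpl and Col17a1 among them, and genes of keratin binding and folding in 2 of 5, Pof1b and the chaperone Hspb1. The other intermediate filaments were lower in 2 of 7 and higher in 0: Vim, the vimentin gene of mesenchymal cells, stood at 465 and 69.5 CPM against 2335 and 2088 CPM (log2 -3.12, adjusted p 0.000564).

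Cartilage held the other large keratin signal. Krt16, a type I keratin best known from wounded and hyperproliferative epidermis, stood at 199 CPM in the chondrocyte-like cells of mouse 1 (193 to 204) and at 258 CPM in those of mouse 2 (252 to 265). Fibroblast-like cells held it at 7.66 and 4.31 CPM, macrophage-like cells at 28.0 and 32.7 CPM and endothelial-like cells at 32.1 and 22.7 CPM. Of all Krt16 UMIs in cells, 90.3% in mouse 1 and 95.1% in mouse 2 were in chondrocyte-like cells. The class leaves out the unnamed cluster 1, which was closest to the chondrocyte list and is given further on. With that cluster added, the Krt16 level was 140 CPM in mouse 1 and 182 CPM in mouse 2. Free RNA held Krt16 at 118 CPM in mouse 1 (447 UMIs) and 133 CPM in mouse 2 (589 UMIs), above its level in every named class but the chondrocyte-like one. Cluster 7, given further on, was below the free RNA in mouse 1 and above it in mouse 2. What part of the counts in cells is free RNA was not tested. The gene was counted in 17.9% of chondrocyte-like cells of mouse 1 (16.6 to 19.2) and 20.9% in mouse 2 (19.1 to 22.7), against 2.22% and 1.63% of fibroblast-like cells, whose median depths were 2681 and 3616 UMIs against 6913 and 11634. With each cell thinned to 1000 UMIs the shares were 7.99% and 9.45% in the chondrocyte-like and 0.898% and 0.461% in the fibroblast-like cells.

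Chondrocyte-like against fibroblast-like cells gave 3 members higher and 4 lower of the 16 tested, against 12.9% and 13.4% of all genes, a share called that is not far from the background. DESeq2 called 2 higher and 2 lower. Krt16 was higher by a log2 fold change of 5.45 (SE 0.48, adjusted p 2.14e-09). Krt17, which stood at 13.7 and 12.9 CPM against 0.844 and 0.811 CPM, was higher by 4.11 (SE 0.47, adjusted p 1.83e-07). Free RNA held Krt17 at 16.1 and 22.8 CPM, above its level in the chondrocyte-like cells of both mice, and the part of free RNA in that result was not tested. Krt18 was higher by 3.59 (SE 0.83, adjusted p 0.00194), at levels of only 1.27 and 0.756 CPM. Lower in the chondrocyte-like cells were Krt80 (log2 -4.04, adjusted p 5.84e-05), Krt23 (-3.40, adjusted p 0.00415), Krt19 (-2.55, adjusted p 0.00111) and Krt10 (-1.31, adjusted p 0.0411). Krt10 was the only one of those 4 above 10 CPM in cartilage, at 12.3 and 15.6 CPM. Without the mouse as a block Krt10 and Krt19 were not called (adjusted p 0.157 and 0.0649), which left 2 members lower. The Krt16 and Krt17 calls depend on how the class is drawn. At a coarser clustering the chondrocyte-like name covered 316 and 207 cells, nearly all Krt16 UMIs (94.9% and 97.3%) lay in unnamed clusters closest to the chondrocyte list, and the difference from fibroblast-like cells was -1.22 for Krt16 (adjusted p 0.184) and -2.19 for Krt17 (adjusted p 0.234).

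The keratin UMIs of cartilage were nearly all type I, most of them Krt16, and a high type I share was not particular to cartilage. Type I made up 97.9% and 95.1% of the typed UMIs in endothelial-like cells and 96.7% and 92.9% in tenocyte-like cells. Fibroblast-like cells were at 84.4% and 87.1%, macrophage-like cells at 53.1% and 60.3%, and mast-like cells at 15% and 0%. Type I genes reached 230 and 295 CPM in the chondrocyte-like cells and type II genes 9.97 and 6.49 CPM, so that type I was 95.9% of the typed UMIs in mouse 1 (95.3 to 96.3) and 97.9% in mouse 2 (97.5 to 98.2). The partners known from stressed epithelium were low, with Krt6a at 0.537 and 0.239 CPM and Krt6b at 0.0383 and 0.239 CPM. Protein was not measured, and no filament can be read from mRNA counts.

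**Figure D3:**
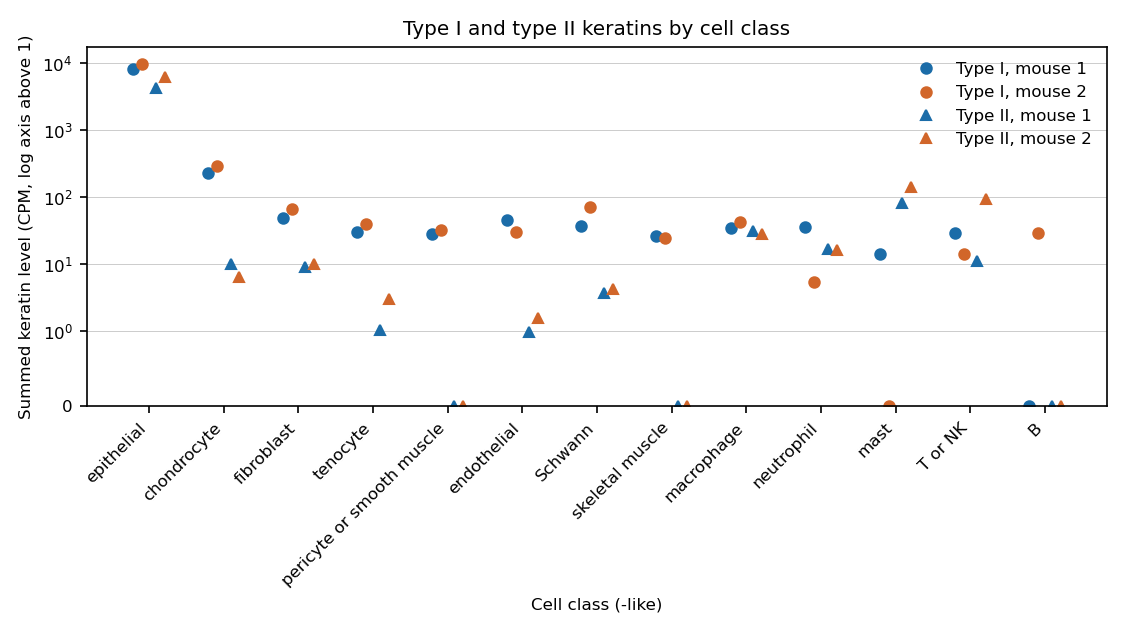
Summed level of type I (circles) and type II (triangles) keratins in each named class, in CPM on a log axis above 1, with mouse 1 in blue and mouse 2 in orange. The 2 types lie close together in epithelial-like cells (8288 and 4335 CPM in mouse 1) and far apart in chondrocyte-like cells (230 and 9.97 CPM).

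Epithelial-like cells set directly against chondrocyte-like cells gave 15 members higher and 1 lower of 16, against 11.6% and 12.2% of all genes. As in the first comparison, 12 of the 16 passed the filter only through the epithelial-like sums, so the count describes them and nothing is read from it against the background. Krt16 was the lower one, by a log2 difference of -3.55 (SE 0.58, adjusted p 3.23e-05), with 37.0 and 5.79 CPM against 199 and 258 CPM. The call was lost with cells of at least 2000 UMIs (-1.34, adjusted p 0.114), where the chondrocyte-like class held 60.4% and 54.6% of the Krt16 UMIs. At the coarser clustering, in which the clusters with most Krt16 went unnamed, the direction turned and the difference was called the other way (3.01, adjusted p 0.0166). Krt17 was 4.10 higher in the epithelial-like cells (SE 0.43, adjusted p 4.81e-08), and Krt75, Krt4 and Krt13 differed by 12.18, 12.38 and 12.62. In mouse 2 the Krt17 level of the epithelial-like class came in large part from the 1 cell given above.

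Within cartilage the keratin signal was uneven. Cluster 6, whose leading gene is Col10a1, the collagen of hypertrophic chondrocytes, held Krt16 at 429 CPM in mouse 1 and 407 CPM in mouse 2. Cluster 3, with the lubricin gene Prg4 among its leading genes, held 135 and 174 CPM. Cluster 7, led by genes such as Il11, Sfn and Col2a1, held 106 and 210 CPM, so clusters 3 and 7 changed places between the mice. The unnamed cluster 1, which has all 6 chondrocyte markers and Ibsp of mineralizing matrix, held 21.6 and 13.1 CPM, and cluster 9 held 5.63 and 1.29 CPM, below the level in fibroblast-like cells of the same mouse. Cluster 23, with 31 cells in mouse 1 alone, had 3 Krt16 UMIs, all in 1 cell.

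Each of the 4 chondrocyte-like clusters found in both mice was tested against the mean of the logs of the other 3, in a fit over 17979 genes in which 20 of the 50 members were tested. In cluster 6, 3 members were higher and 0 lower (3 and 0 at an unadjusted p under 0.05), against 5.45% and 3.00% of all genes: Krt16 by 3.48 (SE 0.28, adjusted p 1.43e-11), Krt17 by 4.05 (SE 0.45, adjusted p 6.53e-08) and Krt90 by 3.90 (SE 0.99, adjusted p 0.0165). Krt90 there rested on mouse 1, at 9.53 CPM, while in mouse 2 it stood at 1.19 CPM and the difference was 0.21. Cluster 3 had 1 member higher and 0 lower (1 and 2 unadjusted), against 1.79% and 1.13%, and cluster 7 likewise 1 and 0 (1 and 0 unadjusted), against 2.29% and 1.42%. In both it was Krt16, by 1.44 (adjusted p 0.00496) and 1.65 (adjusted p 0.000743). Against the plain mean of the CPM of the other 3 clusters, at 180 and 206 CPM, cluster 3 was the lower one in both mice. Its sign thus holds for the mean of logs, in which the low level of cluster 9 weighs more. Cluster 7, against a plain mean of 190 and 194 CPM in the other 3, was lower in mouse 1 and higher in mouse 2. In these plain means each cluster counts alike, whatever its number of UMIs. Without the mouse as a block the value for cluster 3 was 1.43 and was not called (adjusted p 0.0653). In cluster 9, where 19.8% and 16.8% of all genes were called, 2 members were higher and 2 lower. Krt16 and Krt17 were the lower ones, by -6.56 (SE 0.49, adjusted p 3.96e-13) and -5.85 (SE 0.95, adjusted p 8.96e-06). The higher ones, Krt15 and Krt7, were not higher in mouse 1 alone (-0.15 and -0.12), and 91 of the 93 Krt15 UMIs of mouse 2 came from 1 cell.

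**Figure D4:**
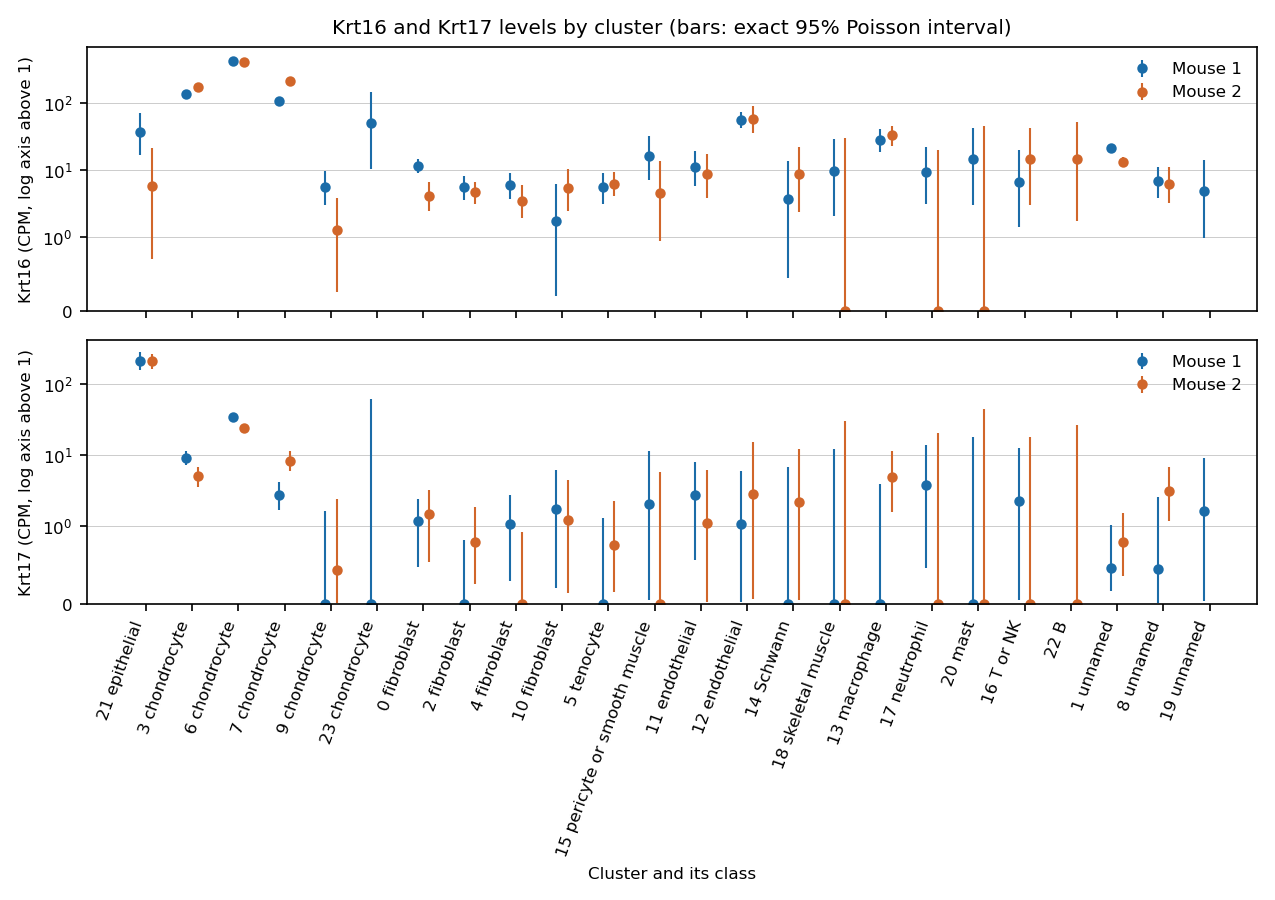
Krt16 (top) and Krt17 (bottom) in each cluster with at least 20 cells in that mouse, in CPM on a log axis above 1, with exact 95% Poisson intervals, mouse 1 in blue and mouse 2 in orange. Krt16 is highest in cluster 6, at 429 and 407 CPM, whereas Krt17 is highest in the epithelial-like cluster 21 and next in cluster 6, at 34.9 and 24.3 CPM.

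Even in cluster 6 only part of the cells carried Krt16. It was counted in 43.5% of 706 cells of mouse 1 and 42.5% of 598 cells of mouse 2, at median depths of 9953 and 16222 UMIs. At least 10 UMIs of it were present in 115 cells (16.3%) and 120 cells (20.1%), with up to 110 and 126 in 1 cell, while 399 and 344 cells had none. The cluster held 55.7% and 60.3% of all Krt16 UMIs, and its 10 highest cells held 18.9% and 23.4% of the cluster's, so the signal was spread over many cells. Elsewhere it was more concentrated: 1 cell of cluster 3 in mouse 2 had 207 of its 1436 UMIs, and 1 macrophage-like cell of mouse 2 had 30 of the 34 in that class.

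Krt17 followed Krt16 among these cells. It was counted in 51 cells of cluster 6 in mouse 1, 47 of them with Krt16, and in 53 cells in mouse 2, 41 of them with Krt16. Cells with at least 10 Krt16 UMIs held Krt17 at 111 CPM in mouse 1 and 61.9 CPM in mouse 2, against 3.33 and 4.59 CPM in cells with none. The cartilage markers were high on both sides: Acan, the core protein of cartilage proteoglycan, stood at 4018 and 4266 CPM with Krt16 and 3447 and 3585 CPM without it, and Col10a1 at 1377 and 1138 CPM against 1017 and 888 CPM. Of the epithelial markers, Sfn stood at 551 and 698 CPM with Krt16 against 469 and 595 CPM without it, where the epithelial-like cells held 526 and 136 CPM. Epcam stood at 20.9 and 15.2 CPM against 14.6 and 9.72 CPM, and Cdh1 at 1.20 and 0.410 CPM against 0.256 and 1.10 CPM. Fos and Jun, early response genes that also rise when tissue is dissociated, were lower in the Krt16 cells. Fos stood at 1350 and 1116 CPM against 1870 and 1865 CPM. Hspa1a, a heat shock gene, was lower with Krt16 in mouse 1, at 18.0 against 39.9 CPM. In mouse 2 it was higher, at 57.4 against 44.0 CPM. Krt5 and Krt14 in this cluster were those of single cells in mouse 1, with 67 of 75 and 36 of 45 UMIs in 1 cell.

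Other genes of the fixed lists were set beside these keratins in cluster 6, where 5.45% of all genes tested were higher and 3.00% lower. Pof1b, an actin-binding protein of epithelial junctions, was higher by 3.88 (SE 0.58, adjusted p 2.33e-05) and Hspb1, a small heat shock protein, by 1.92 (SE 0.32, adjusted p 4.65e-05), which made 2 of 7 tested genes of keratin binding and folding. Ehf and Grhl1, 2 of 11 epithelial transcription factors, were higher by 1.69 and 0.99. Nes, the nestin gene, was the 1 of 9 other intermediate filament genes called, higher by 4.51 (SE 0.33, adjusted p 2.2e-12). In other lists 1 of 12 hemidesmosome and plakin genes, 1 of 2 notochord genes and 0 of 6 cornified envelope genes were higher. The desmosome genes Dsg2 and Perp differed by 0.79 and -0.29 and were not called (adjusted p 0.124 and 0.657), nor was Ier2 of the dissociation response, at 0.62 (adjusted p 0.208).

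Over the whole chondrocyte-like class against fibroblast-like cells, 2 of 5 desmosome genes were higher, against 12.9% of all genes higher and 13.4% lower. They were Dsg2, a desmosomal cadherin, at 31.9 and 33.4 CPM against 0.389 and 0.125 CPM, and Perp, a desmosome membrane protein, at 41.4 and 26.2 CPM, while Dsp stood at only 0.153 and 0.159 CPM. Of the hemidesmosome and plakin genes 6 of 11 were higher and 2 lower, among them Itga6, an integrin chain of hemidesmosomes, at 51.0 and 40.1 CPM against 6.16 and 9.61 CPM, and the plakin Ppl lower at 2.49 and 2.63 CPM against 86.5 and 89.8 CPM. Ehf was higher by 5.03 (adjusted p 2.34e-08). Sfn, an epithelial marker, stood at 573 and 658 CPM in chondrocyte-like cells, so the 7 epithelial markers summed to 592 and 674 CPM there against 1678 and 1385 CPM in epithelial-like cells, while Cdh1 stood at 1.27 and 0.597 CPM and Cldn4 at 0.0767 and 0.0796 CPM. The 11 dissociation response genes summed to 6717 and 7138 CPM against 6431 and 4465 CPM in fibroblast-like cells, with 1 higher and 2 lower. Cd24a, the 1 notochord gene tested, was higher by 3.65.

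Other classes held single keratins at low levels. Krt10 stood at 31.0 CPM in fibroblast-like cells of mouse 1 (28.3 to 33.9) and 46.6 CPM in mouse 2 (43.3 to 50.1), and at 22.8 and 30.6 CPM in tenocyte-like cells, beside 16.6 and 35.9 CPM in free RNA. In mouse 2 the tenocyte-like level was thus below that of free RNA, and the part of free RNA in these levels was not tested. Among fibroblast-like clusters it ran from 15.8 and 34.4 CPM in cluster 0 to 44.6 and 68.1 CPM in cluster 10. It was counted in 7.92% and 13.0% of fibroblast-like cells against 2.65% and 0.985% of macrophage-like cells, whose median depths were higher, at 3989 and 4382 UMIs. Krt10 overlaps the antisense gene Gm11940 in the GRCm38 annotation, and whether the counting kept strands apart is not stated in the labels.

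Single keratins were also counted in blood and immune cells. Krt80 stood at 24.9 CPM in macrophage-like cells of mouse 1 (16.0 to 37.0) and 23.1 CPM in mouse 2 (14.8 to 34.3), against 2.98 and 2.87 CPM in fibroblast-like cells. Krt4 stood at 67.3 CPM (36.8 to 113) and 133 CPM (66.3 to 238) in mast-like cells, on 14 and 11 UMIs in 11 of 62 and 8 of 26 cells, against 0.130 and 0.125 CPM in fibroblast-like cells. Krt83, a type II hair keratin, stood at 11.2 CPM (3.63 to 26.1) and 86.1 CPM (51.0 to 136) in T or NK cells and at 11.3 and 10.9 CPM in neutrophil-like cells. Intervals for Krt4 in mast-like cells and Krt80 in macrophage-like cells overlap between the mice, while those of Krt83 in T or NK cells do not. Krt222, which lacks the type I and type II classes, was highest in B cells at 43.9 and 7.26 CPM, which is 2 UMIs and 1 UMI. Krt20, Krt36 and Krt12 were highest in fibroblast-like cells, at 0.195 to 1.62 CPM, and Krt79 stood there at 2.47 and 4.37 CPM, below 3 UMIs and 1 UMI in mast-like cells (14.4 and 12.1 CPM).

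**Figure D5:**
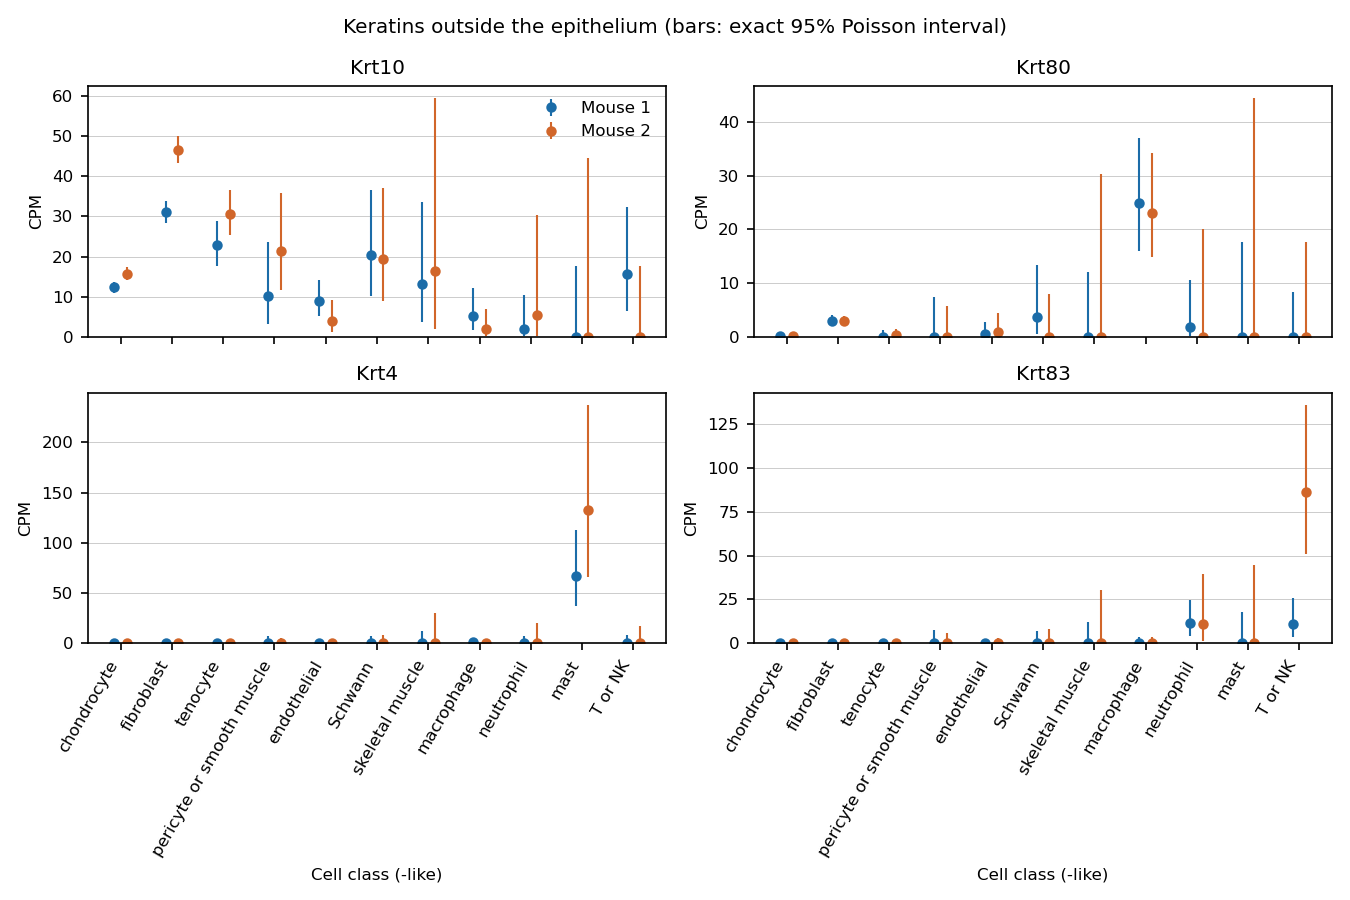
Level in CPM of Krt10, Krt80, Krt4 and Krt83 in each named class other than epithelial-like and B cells, with exact 95% Poisson intervals, mouse 1 in blue and mouse 2 in orange. Krt10 stands at 31.0 and 46.6 CPM in fibroblast-like cells. Krt80 stands out in macrophage-like cells (24.9 and 23.1 CPM), Krt4 in mast-like cells (67.3 and 133 CPM) and Krt83 in T or NK cells of mouse 2 (86.1 CPM).

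Genes whose levels ran most like a keratin over the 21 clusters with at least 20 cells in both mice were picked among 8719 genes by Pearson's r on mean log2 CPM with 10 added. Neighbours of Krt16 were Elfn1 (r 0.892), Cx3cl1 (0.891), Dab1 (0.879), A130051J06Rik (0.860) and Fam83g (0.857), the first 4 highest in cluster 6. For Krt10 they were 0610031O16Rik, 4930579F01Rik, Adh7, Gm17300 and Gsta3, with r between 0.879 and 0.907. For Krt13 they were Serpinb11, Pbp2, Klk13, Clca4c-ps and Trex2, and for Krt7 Clca3b, Clca4c-ps, Aqp4, Prss8 and Mab21l4, with r of 0.999 throughout. The neighbours of Krt10, Krt13 and Krt7 were all highest in the epithelial-like cluster 21. The clusters share libraries and differ in depth, and these values are descriptions.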

How the data were processed

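Single-cell RNA was captured in droplets from the tissue of 2 mice, 1 library each. The deposited matrices hold counts of UMIs per gene and barcode that the authors made with STAR and Cell Ranger 7.0.0 on GRCm39, per the submitters' processing notes; the use of strand in counting is not stated. The matrices hold 575908 and 610731 barcodes with 95844802 and 86049057 UMIs.

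Barcodes with at least 1000 UMIs, at least 300 genes and at most 15% mitochondrial UMIs were kept. Scrublet's own threshold called 0 doublets in both libraries, so the highest scores were removed instead at 0.8% per 1000 cells (1599 and 750 barcodes). Cells were clustered in python 3.11.15 with scanpy 1.11.5 and leidenalg 0.10.2 (2000 variable genes, 30 components, 15 neighbours, resolution 1) without keratins and listed genes. A cluster was named from marker lists at a score of at least 1.5, a lead of 0.25 and 3 markers in at least 10% of its cells; the names are thus rebuilt and not the authors'. UMIs were added up for every class or cluster of a mouse (at least 20 cells in both mice) and tested with edgeR 4.0.16 in R 4.3.3 (quasi-likelihood test, TMM, Benjamini-Hochberg adjustment over all genes tested) with the mouse as a block, because classes of 1 number come from the same animal. In the 2 fits 24 and 42 sums left 11 and 20 residual degrees of freedom, so each p-value rests on 2 animals. On simulated chondrocyte-like and fibroblast-like counts with a log2 change of 2 in 200 genes, 192 were recovered and 4 unchanged genes were called. The changed genes were drawn from well-counted ones, with 1 fixed spread for all genes and no difference between mice. The recovery thus does not speak for keratins with few UMIs.

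The members and gene lists were chosen with earlier results of these data known. Members with at least 20 UMIs are named with their levels, and of each gene list up to 4 members with the smallest adjusted p. Alternatives were DESeq2 1.42.0, its size factors, no filter on low counts, no block, only 2 classes in a fit, other cell limits and clustering settings, and each mouse alone. Chosen after seeing the data were the addition of unnamed cartilage clusters and the removal of shared and of alike barcodes.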

Additional observations from a re-analysis of the deposited data

Results flagged for a closer look

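Barcodes of at least 100 UMIs but under the minimum of 1000 for a cell, which no comparison used, also held keratin RNA. Their keratin level was 231.9 CPM in mouse 1 (2795 UMIs) and 265.9 CPM in mouse 2 (2193 UMIs), far above the limit that a count of 0 allows. The cells of the same mice held 173 and 244 CPM and the barcodes of at most 50 UMIs held 237 and 339 CPM.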

How the results depend on the processing

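Of 567 tests of 47 keratin results under 14 settings, 540 kept their direction and side of the threshold, 24 lost the threshold (15 of them under DESeq2) and 3 reversed. The 3 were at resolution 0.5, where the clusters with most Krt16 went unnamed: Krt16 (-1.22) and Krt17 (-2.19) in chondrocyte-like minus fibroblast-like cells and Krt16 (3.01) in epithelial-like minus chondrocyte-like cells. In chondrocyte-like minus fibroblast-like cells the members higher numbered 6 with no filter, 7 with only those classes fitted and 1 at resolution 0.5, beside 3. The members lower numbered 7 with no filter, 2 under DESeq2 and 2 at resolution 0.5, beside 4. The 1 member lower in epithelial-like than chondrocyte-like cells became 0 with at least 2000 UMIs and at resolution 0.5. Over the 4 chondrocyte-like clusters the 7 higher calls became 4 under DESeq2 and 12 with no filter, and the 2 lower became 7 with no filter. With no replicate block, members lower in chondrocyte-like than fibroblast-like cells numbered 2, and 4 of the 47 results lost the threshold. With doublets kept, Krt16 in chondrocyte-like cells stood at 152 and 185 CPM, in 14.3% and 15.9% of cells. The clusters were redrawn there, and the named class held 66.4% and 71.6% of the Krt16 UMIs, beside 90.3% and 95.1%. With the unnamed clusters closest to the chondrocyte list added, Krt16 stood at 132 and 173 CPM, beside 140 and 182 CPM. The part of doublets in these changes was not tested. Krt13 in the epithelial-like cells of mouse 2 stood at 3637 CPM with doublets kept. Thinned to 1000 UMIs the Krt16 shares were 7.99% and 9.45%. Of 94 values from 1 mouse alone, which have no test, 2 reversed, both in cluster 9: over the mice left out in turn Krt15 ranged from -0.15 to 4.84 and Krt7 from -0.12 to 1.72, with the low values without mouse 2. With 34 epithelial-like cells per mouse, 1 cell is 2.94% of that class.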
